A study of Arabidopsis thaliana with 4 samples.

Results

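Genes that point at each other and end close together share a short stretch of DNA that RNA polymerase II (Pol II) can reach from both sides. Such convergent pairs were taken as neighbouring nuclear protein-coding genes of the TAIR10.1 annotation, the first on the plus and the next on the minus strand. Their annotated 3′ ends overlapped by at most 500 bp or lay at most 200 bp apart. Of 6417 convergent neighbouring pairs, 3442 met this rule, 2096 with overlapping and 1346 with separate ends, and they held 6884 genes, 25.1% of the nuclear protein-coding genes. The rule uses only the annotation and no reads, but it was chosen with earlier results of these data known. The median overlap was 70 bp and the median gap 66 bp. A further 242 convergent pairs overlapped by more than 500 bp and were left out.

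The study asked whether HYL1 affects Pol II occupancy. Pol II was immunoprecipitated from crosslinked leaves of 21-day-old Arabidopsis thaliana plants grown on soil in long days. One group was WT Col-0 and the other hyl1-2, a T-DNA insertion line grown as a knock-out of HYL1, and the antibody (Abcam ab817) recognizes total Pol II. Each genotype had 1 ChIP library and 1 input library of sheared chromatin with no antibody, so differences between genotypes had no replicate check and were not tested.

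Pol II does not stop at the annotated end of a gene. It transcribes past the poly(A) site, the transcript is cleaved and polyadenylated by a complex that reads the poly(A) signal and the AU-rich sequence around it, and the polymerase is released further on. Where the other gene comes from the opposite side, both polymerases use the same DNA, and where the transcripts overlap they can form double-stranded RNA, the source of natural antisense siRNAs described for some Arabidopsis pairs. HYL1 is a double-stranded RNA-binding protein that works with DCL1 and SERRATE in miRNA processing.

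The input libraries held 17734005 reads in WT and 22766187 in hyl1-2, and the ChIP libraries 37717174 and 30333558. Leaf genes did not stand out in the WT ChIP library: over 7 genes of photosynthesis and carbon fixation the ChIP-over-input ratio ran from 0.55 to 1.32 (median 0.865) in WT and from 1.08 to 5.29 (median 1.67) in hyl1-2. Over 6 seed genes, silent in mature leaves by textbook knowledge, it ran from 0.782 to 2.24 (median 1.71) in WT and from 0.733 to 1.38 (median 1.12) in hyl1-2. By median the seed genes lay above the leaf genes in WT and below them in hyl1-2. The median GC content was 41.8% in the leaf genes and 44.6% in the seed genes. Whether the WT ratio follows transcription was not tested, and every WT value below rests on that single library. HYL1 itself had a ratio of 1.18 in WT and 3.76 in hyl1-2, a fold change of 3.19 (95% counting interval 2.75 to 3.71). An insertion leaves the gene's DNA in place, so this value does not check the genotype. Both ChIP ratios also moved with base composition: over tiles of the genome the ratio rose from 0.262 at 20 to 22% GC to 1.74 at 54 to 56% GC in WT, and from 0.36 to 1.53 in hyl1-2.

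The gaps between the ends are short. Shown are 8 of them, which separate pairs with the highest Pol II level, the highest fold change or the lowest fold change described here. Each is the whole stretch between both annotated 3′ ends in TAIR10.1, read 5′ to 3′ on the plus strand. Capitals mark AATAAA, the canonical poly(A) signal, on either strand (TTTATT on the printed one).
SRC2 and BIP3, chr1:2929108-2929216, plus strand: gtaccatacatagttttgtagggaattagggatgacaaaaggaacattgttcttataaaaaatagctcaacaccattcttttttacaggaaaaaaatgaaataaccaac
UBQ10 and AGD13, chr4:2720309-2720492, plus strand: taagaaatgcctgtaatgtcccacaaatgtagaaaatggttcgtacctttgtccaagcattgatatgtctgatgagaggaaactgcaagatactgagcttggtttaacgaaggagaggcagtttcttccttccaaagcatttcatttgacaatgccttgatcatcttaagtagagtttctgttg
AT1G22190 and AT1G22200, chr1:7837412-7837562, plus strand: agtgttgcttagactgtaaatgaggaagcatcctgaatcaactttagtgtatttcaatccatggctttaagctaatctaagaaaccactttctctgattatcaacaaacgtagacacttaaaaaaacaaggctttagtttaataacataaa
PFK4 and AT5G61590, chr5:24764169-24764255, plus strand: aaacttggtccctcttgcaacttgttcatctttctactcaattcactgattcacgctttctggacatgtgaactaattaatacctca
CEP3 and BT2, chr3:17907691-17907766, plus strand: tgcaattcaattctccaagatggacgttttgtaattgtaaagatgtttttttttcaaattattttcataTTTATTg
AT3G25960 and AT3G25970, chr3:9499933-9500015, plus strand: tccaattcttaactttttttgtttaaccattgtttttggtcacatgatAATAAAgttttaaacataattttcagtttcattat
PRN and AT3G59230, chr3:21895790-21895947, plus strand: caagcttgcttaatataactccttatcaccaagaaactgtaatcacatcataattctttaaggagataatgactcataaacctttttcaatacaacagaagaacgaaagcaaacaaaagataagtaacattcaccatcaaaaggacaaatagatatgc
AT5G52940 and AT5G52950, chr5:21473603-21473719, plus strand: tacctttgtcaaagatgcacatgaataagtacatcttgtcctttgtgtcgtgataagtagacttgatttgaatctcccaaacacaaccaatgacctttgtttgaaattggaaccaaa
AATAAA was found on the plus strand of the gap between AT3G25960 and AT3G25970 and on the minus strand of the gap between CEP3 and BT2. The share of A or T in the gaps shown ran from 60.9%, between UBQ10 and AGD13, to 78.3%, between AT3G25960 and AT3G25970. In the last 50 bases before the annotated 3′ end, AATAAA stood on the gene's own strand in 9.73% of the ends of overlapping pairs, in 8.95% of those of separate pairs and in 9.77% of all 27442 3′ ends. On the other strand the shares were 7.01%, 6.58% and 7.39%. The 200 bp around the midpoint held the motif on both strands in 5.77% of overlapping and 5.27% of separate pairs, against 7.34% of windows of the same length around all 3′ ends. These shares differed little, and a match of 6 letters is not a measured cleavage site.

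Base composition changed sharply across the pairs. Around the midpoint between the 3′ ends, the 200 bp had a median GC content of 32.5% in both classes. At 500 to 1000 bp on both sides, mostly inside the genes, it was 39.8% in overlapping and 40.3% in separate pairs. Both genes reached at least 1000 bp from the midpoint in 2728 pairs. Another annotated gene lay in the 2 kb of 757 pairs, 554 overlapping and 203 separate.

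Over the whole 2 kb, the median pair had a similar ChIP-over-input ratio in both genotypes. Each library was scaled to its own total reads, so this does not measure the amount of Pol II. With scaling by windows far from genes instead, the median log2 of hyl1-2 over WT was -0.16 in overlapping and -0.24 in separate pairs. Levels are ChIP over input, each as RPM per kb, that is reads in 1 kb per 1000000 reads of the library. In overlapping pairs the median was 1.19 in WT and 1.19 in hyl1-2. In separate pairs it was 1.19 in WT and 1.15 in hyl1-2. Both classes lay above all 3′ ends, whose medians were 0.995 in WT and 1.01 in hyl1-2, and above isolated 3′ ends with no other gene within 1000 bp downstream (0.808 and 0.837). These windows are unlike, since the 2 kb around a single 3′ end also holds DNA downstream of that gene. At isolated ends the summed WT ratio was 1.29 at 550 to 600 bp before the end and 0.528 at 850 to 900 bp after it. The part of window content in these levels was not tested. The median GC content of the 2 kb was 39.2% in overlapping pairs, 38.9% in separate pairs, 37.1% around all ends and 34.2% around isolated ends, and its part in these levels was not tested.

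The fold change, hyl1-2 over WT, had a median log2 value of 0.0027 (quartiles -0.23 and 0.36) in overlapping pairs and -0.072 (quartiles -0.29 and 0.28) in separate pairs. It exceeded 1.2 in 999 pairs, 29.0%, against 28.7% of the 2-kb windows around all 3′ ends. It fell below 0.8 in 591 pairs, 17.2%, against 16.5% of all ends. The pairs as a whole were therefore near the background in both directions. Between the classes, 30.9% of overlapping and 26.1% of separate pairs were higher, and 15.2% and 20.3% were lower. The 95% counting interval of the fold change, which covers counting error only, lay above 1 in 1006 pairs (29.2%, against 28.1% of all ends) and below 1 in 861 (25.0%, against 22.3%). With the difference between classes smaller than the spread among pairs and 1 library per condition, no test was made.

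**Figure D1:**
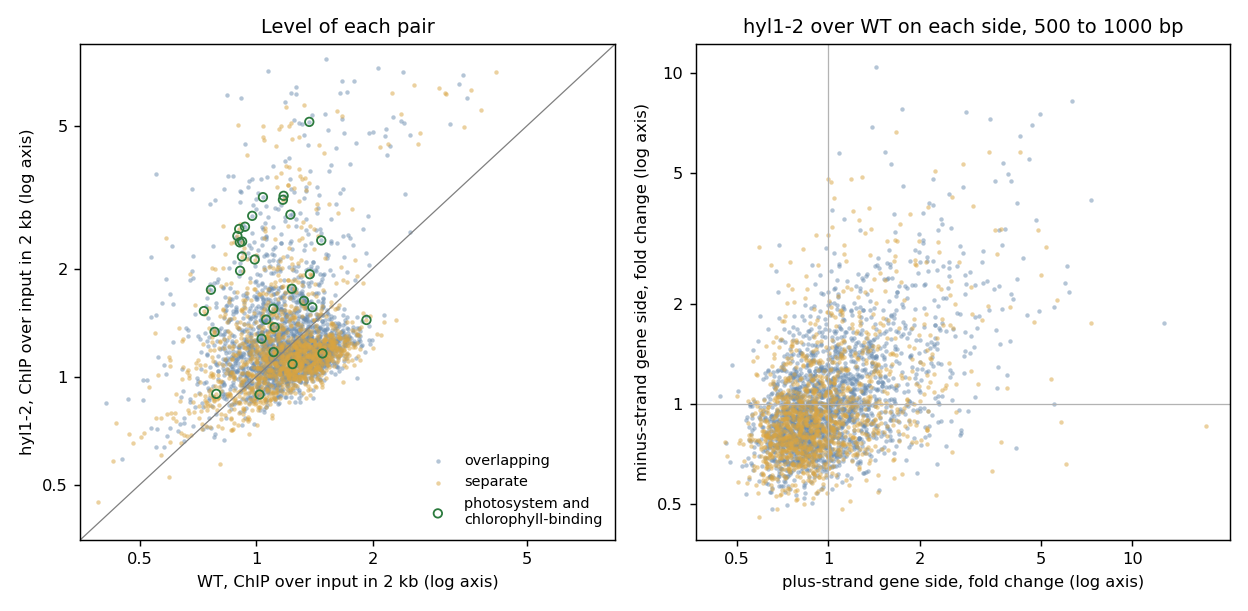
Left, ChIP over input in the 2 kb of each pair in hyl1-2 (vertical, log axis) against WT (horizontal, log axis), 2096 overlapping pairs in blue and 1346 separate pairs in yellow; green rings mark the 32 pairs with a photosystem or chlorophyll-binding gene and the line is equality. Right, the fold change of hyl1-2 over WT 500 to 1000 bp from the midpoint on the plus-strand gene's side (horizontal, log axis) and on the minus-strand gene's side (vertical, log axis). The pairs of highest level in hyl1-2 lie above the line, which picking them by the vertical axis favours.

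The largest fold changes belonged to pairs that lay near or below input in WT. Ranking by fold change favours such pairs, because the WT level is its denominator. Pairs are named here from those with at least 50 reads in every library, both over the 2 kb and in the 200 bp around the midpoint. For the pair with the largest, DELTA-TIP, a channel protein of the vacuolar membrane, and PnsB3, a subunit of the chloroplast NDH complex, which overlap by 120 bp, the inputs of WT and hyl1-2 had densities of 8.04 and 7.5, and their ChIP libraries 6.75 and 45.8 RPM per kb. ChIP stood below input in WT and far above it in hyl1-2. The fold change was 7.27 (95% counting interval 6.10 to 8.67). The pair of AT1G56220, of the dormancy and auxin associated family, and AT1G56225, overlapping by 243 bp, had 8.33 and 7.54 in the inputs and 4.58 and 27.6 in the ChIP libraries, a fold change of 6.67 (5.54 to 8.03). For AT3G19680, a DUF1005 protein, and AT3G19690, a member of the family of secreted CAP proteins, which also overlap, the WT ChIP density was 7.96 and the hyl1-2 ChIP density 49.2, a fold change of 6.62 (5.54 to 7.91). In all 3 the inputs differed far less than the ChIP libraries.

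Among separate pairs the largest fold changes reached 5.62. That value (4.80 to 6.57) was of PFK4, a phosphofructokinase of glycolysis, and AT5G61590, annotated as a DNA-binding protein, 87 bp apart, with a level of 0.896 in WT and 5.04 in hyl1-2. CEP3, a cysteine proteinase, and BT2, a BTB and TAZ domain protein, 76 bp apart, followed with 1.04 in WT and 4.99 in hyl1-2, a fold change of 4.79 (4.06 to 5.65). These changes were uneven between the genes: on the CEP3 side it was 1.67 and on the BT2 side 6.63. CP12-2, which binds enzymes of the Calvin cycle, and BZIP53, a bZIP transcription factor, lay 5 bp apart and had 1.19 in WT and 5.63 in hyl1-2, a fold change of 4.72 (4.00 to 5.56).

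The pairs with the highest level in hyl1-2 were in part high in WT too. The highest of all was the overlapping pair of AT3G59940, a kelch repeat protein, and AT3G59950, a peptidase of family C54, with 1.51 in WT and 7.68 in hyl1-2. It was followed among overlapping pairs by AT3G15450, an aluminum induced protein, with AT3G15460, a Brix domain protein of ribosomal RNA processing (2.07 and 7.24), by AT3G19680 with AT3G19690 above (1.07 and 7.10), and by MYB73, a MYB transcription factor, with HMA1, a heavy metal ATPase (2.40 and 7.05). In separate pairs the level of SRC2, a gene regulated by cold, and BIP3, an Hsp70 chaperone of the endoplasmic reticulum, was 4.16 in WT (95% counting interval 3.70 to 4.67) and 7.07 in hyl1-2 (6.39 to 7.83). UBQ10, which encodes polyubiquitin, and AGD13, an ARF-GAP protein, had 3.59 and 6.29. AT1G22190 and AT1G22200, a DNA-binding protein and a vesicle transport protein, had 2.96 and 6.38, and WDL1 and AT3G04640 3.07 and 6.18. Of these 8 pairs, the interval of the WT level included 1 only for AT3G19680 with AT3G19690 (0.934 to 1.23).

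At the other end, decreases were smaller. The lowest fold change among pairs with enough reads to be named was 0.579 (0.486 to 0.69), of PRN, which encodes pirin, and AT3G59230, 158 bp apart, where ChIP density was 13.0 in WT and 9.34 in hyl1-2 and input density 7.78 and 9.66. AT5G52940 and AT5G52950, 117 bp apart, had 0.60 (0.50 to 0.718). A pyruvate kinase gene, AT3G25960, and the pentatricopeptide repeat gene AT3G25970 had 0.601 (0.504 to 0.716). Among overlapping pairs, the lowest were AT1G56105 with NOP56, a protein of ribosomal RNA modification (0.635), RECA3 with PAP16 (0.636) and the tetratricopeptide and pentatricopeptide repeat genes AT2G20710 and AT2G20720 (0.636). In all 6 the level was above 1.5 in WT and within 0.967 to 1.27 in hyl1-2. Picking pairs by a low fold change favours a high level in WT. Part of each fold change lay in the inputs: in these 6 pairs input density was 1.1 to 1.24 times as high in hyl1-2 as in WT, while ChIP density was 0.669 to 0.751 times as high.

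**Figure D2:**
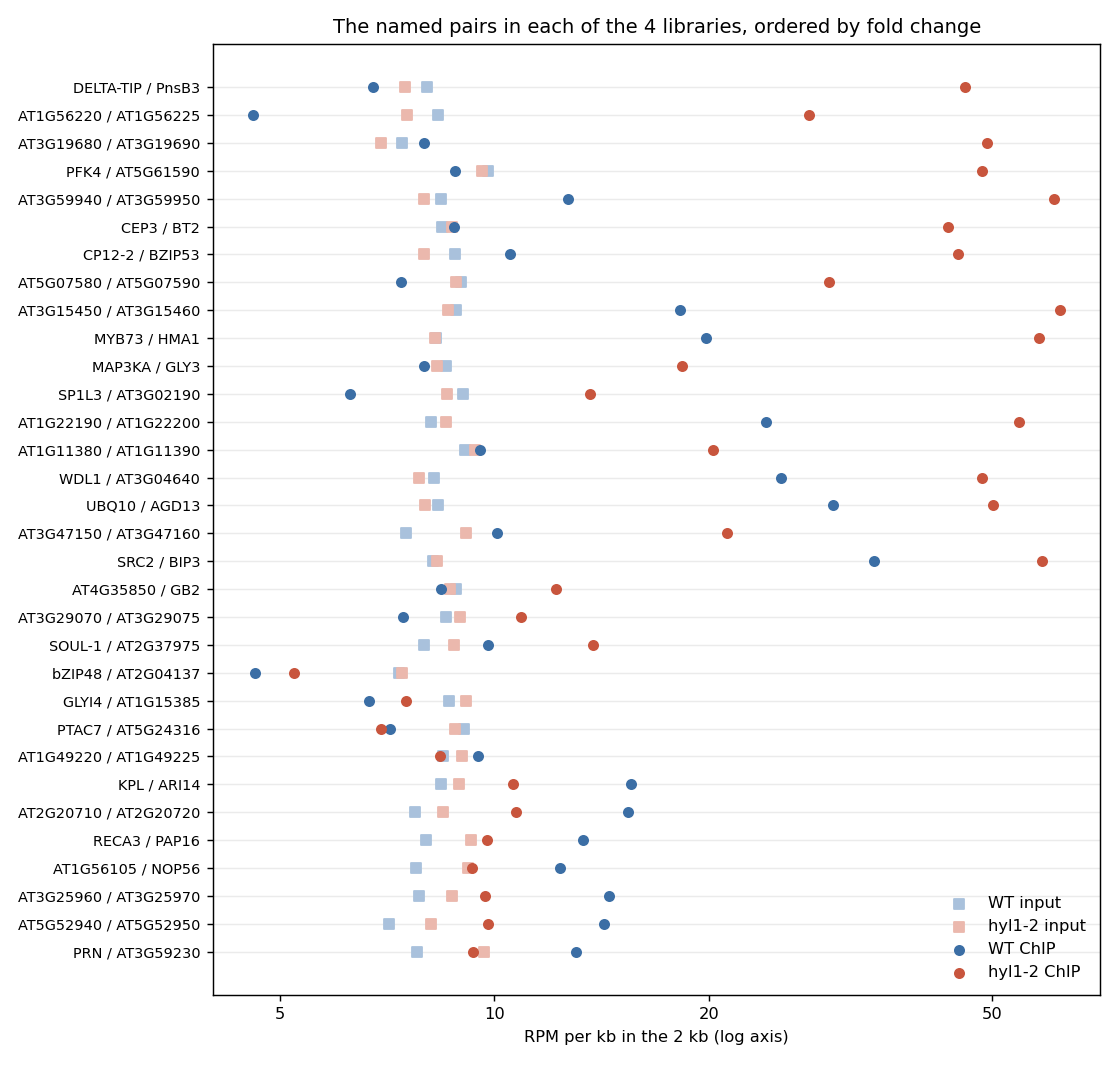
RPM per kb in the 2 kb (horizontal, log axis) of the 32 named pairs in each of the 4 libraries, squares for input and circles for ChIP, ordered by fold change. In WT and hyl1-2, ChIP is 6.75 and 45.8 for DELTA-TIP and PnsB3, and 13.0 and 9.34 for PRN and AT3G59230, where input is 7.78 and 9.66.

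Pairs that hold a gene of the photosystems or of the chlorophyll-binding proteins, the light-harvesting machinery of the leaf, were mostly higher in hyl1-2. There were 32 such pairs, 21 overlapping and 11 separate, grouped by product name. The fold change exceeded 1.2 in 25 of them, 78.1%, and fell below 0.8 in 2, 6.25%. Their level ran from 0.731 to 1.92 (median 1.05) in WT and from 0.891 to 5.13 (median 1.84) in hyl1-2. Of all genes with such product names, in any arrangement, 72.1% had a fold change above 1.2 around the 3′ end, close to the share in the convergent pairs. Below 0.8 were 4.41% of these genes. The median end quotient of these pairs, defined below, was 0.731 in WT and 1.38 in hyl1-2. The largest was CAB1, a chlorophyll-binding protein gene, with NRPA2, the second largest subunit of RNA polymerase I, at 1.37 in WT and 5.13 in hyl1-2, a fold change of 3.74 (3.16 to 4.44). PSBP-1 of photosystem II with AT1G06690 had 3.04 (2.57 to 3.61), LHCA4 of the photosystem I antenna with ATSMC2 2.88 (2.44 to 3.39), and PSAF of photosystem I with LBD4 2.86 (2.38 to 3.44). The 2 that were lower were CARB with CAB3 (0.747, interval 0.624 to 0.895) and AT2G30780 with PSBP-2 (0.783, interval 0.655 to 0.935). CAB3 lies beside CAB1 and CAB2 on chromosome 1 and the genes are near copies, so reads that fit several of them may have been placed on either.

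**Figure D3:**
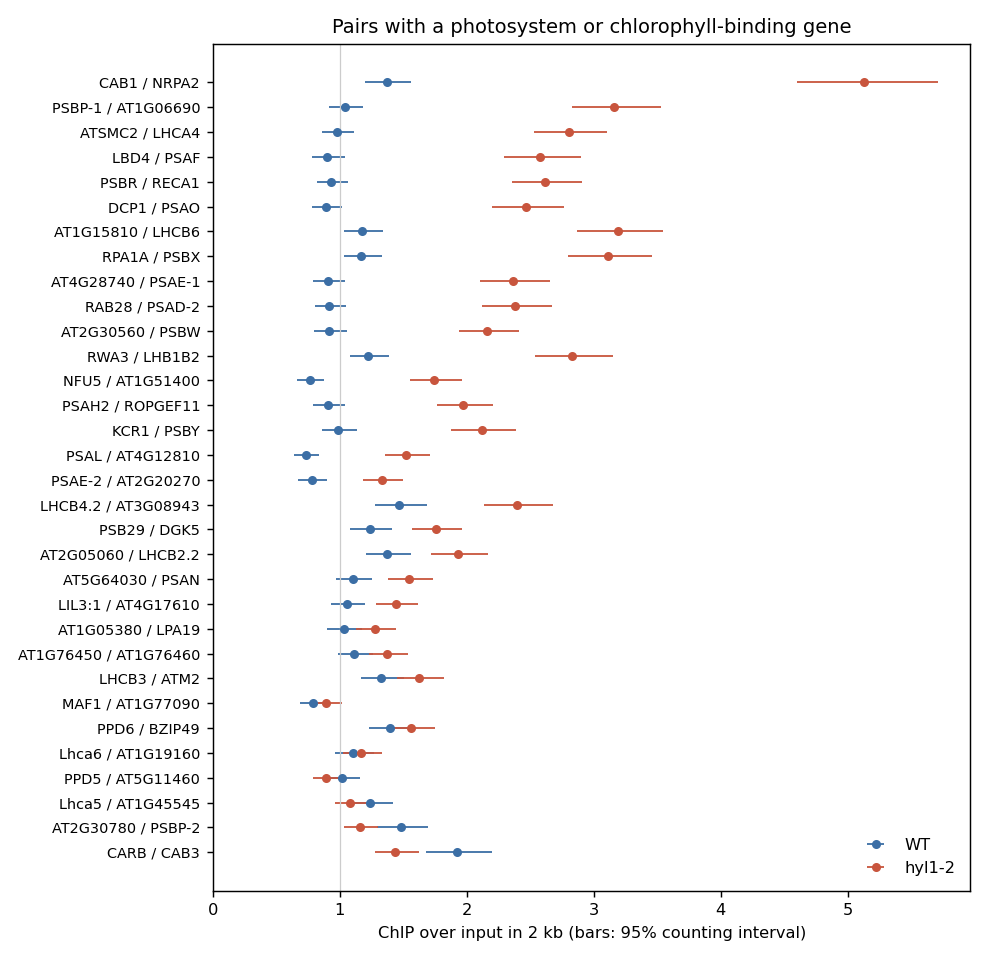
ChIP over input in the 2 kb (horizontal) of the 32 convergent pairs with a photosystem or chlorophyll-binding gene, WT in blue and hyl1-2 in red, with 95% counting intervals as bars, ordered by fold change. CAB1 with NRPA2 has 1.37 in WT and 5.13 in hyl1-2, and CARB with CAB3 is lower in hyl1-2 (0.747-fold).

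Other product groups moved less. Of 110 pairs with a ribosomal protein gene, 45 were higher and 4 lower, with a median log2 fold change of 0.20. In 116 pairs with a pentatricopeptide or tetratricopeptide repeat gene, 18 were higher and 31 lower, with a median of -0.19. For 123 pairs with an F-box gene the counts were 20 and 28, or 16.3% and 22.8%, against 11.5% and 28.8% around the 3′ ends of all F-box genes. For 350 with a kinase gene they were 96 and 68, or 27.4% and 19.4%, against 28.6% and 17.3% for all kinase genes. The shares of pairs that were higher, 40.9% for ribosomal proteins and 15.5% for repeat proteins, were close to those around the 3′ ends of all genes with those names, 44.8% and 15.3%. For pairs that were lower the shares were 3.64% and 26.7%, against 2.62% and 22.4% for all genes with those names.

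At the centre of the pairs the genotypes differed more than over the 2 kb. Summed over all overlapping pairs in 50-bp bins, the WT ratio fell from 1.37 at 300 to 350 bp before the midpoint to 0.874 at 50 to 100 bp after it. In separate pairs it fell from 1.39 to 0.786. In hyl1-2 the maximum was 1.59 in overlapping pairs, 300 to 350 bp after the midpoint, and 1.47 in separate pairs, 250 to 300 bp before it, and the lowest values, 1.21 and 1.17, stood at the outer edge, 950 to 1000 bp before the midpoint. The bins used the intervals as deposited and were not redone with extension along each read's own strand. Whether the offset of these bins from the midpoint comes from that extension was not tested. In the 200 bp around the midpoint, the fold change exceeded 1.2 in 1884 of 3440 pairs, 54.8%, against 53.7% of all 3′ ends, and was below 0.8 in 377, 11.0%, against 13.9%.

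**Figure D4:**
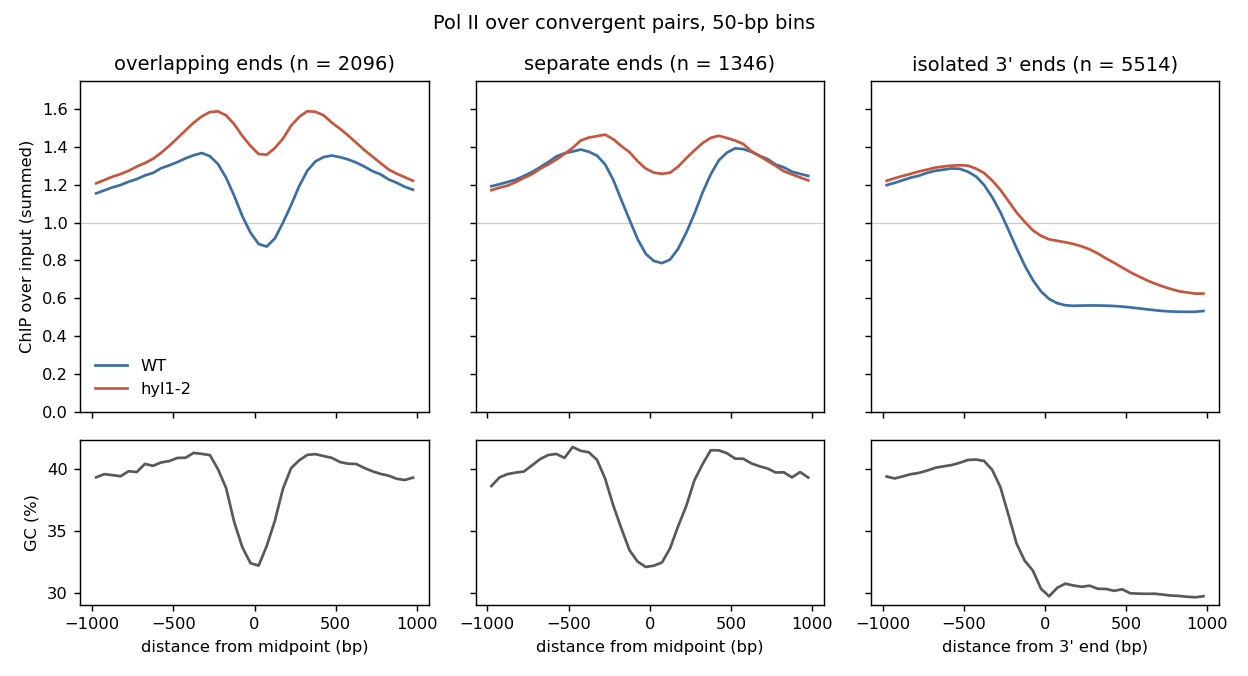
Upper row, ChIP over input summed over all windows of a class in 50-bp bins, WT in blue and hyl1-2 in red, from 1000 bp before to 1000 bp after the midpoint of overlapping pairs, of separate pairs, and the end of isolated genes, which point to the right. Lower row, GC content in the same bins. The WT ratio falls to 0.874 and 0.786 near the midpoint of overlapping and separate pairs, where GC falls to 32.2% and 32.1%.

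An end quotient was computed for each pair, the ratio in the 200 bp around the midpoint over the ratio 500 to 1000 bp away on both sides. A value below 1 means less Pol II signal at the ends than in these flanks. The flanks lie wholly inside the genes only where both genes reach 1000 bp. In WT the median log2 quotient was -0.35 (quartiles -0.71 and -0.029) in overlapping pairs and -0.60 (quartiles -0.99 and -0.25) in separate pairs. In hyl1-2 it was 0.041 (quartiles -0.22 and 0.31) and -0.087 (quartiles -0.42 and 0.25). The quotient was below 1 in WT in 2787 of 3438 pairs, 81.1%, against 78.7% of all 3′ ends, and in hyl1-2 in 1745, 50.8%, against 58.8%. In 2843 pairs, 82.7%, hyl1-2 had the higher quotient of the genotypes, against 76.8% of all ends. The share was 85.6% in 1281 convergent pairs above 200 and up to 1000 bp apart, so it was not particular to close ends. Around a single 3′ end the downstream flank lies outside that gene, unlike most flanks of a pair. Separate pairs were more often below 1 than overlapping pairs in both genotypes, 87.5% against 77.0% in WT and 57.5% against 46.5% in hyl1-2.

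GC content moved with this result, and the lower signal at the ends did not remain after subtraction of a GC curve. With the ratio expected from the GC content of each window subtracted, from a curve fitted on genome tiles, the median log2 quotient became 0.30 in overlapping and 0.13 in separate pairs in WT. In hyl1-2 it became 0.46 and 0.36. The corrected quotient was below 1 in 31.6% of pairs in WT, against 46.3% of all 3′ ends, and in 17.1% in hyl1-2, against 32.1%. In 62.9% of pairs hyl1-2 had the higher corrected quotient, against 62.5% of all ends and 73.0% of convergent pairs above 200 and up to 1000 bp apart. The correction assumes that the tiles' slope with GC is technical, whereas genes are also richer in GC than the DNA between them, and these cannot be told apart here. In pairs whose ends and flanks differed by at most 2 GC points the uncorrected medians were -0.037 and -0.19 in WT and 0.14 and 0.18 in hyl1-2. The order of the classes, overlapping above separate, was kept in WT, with differences of 0.25 uncorrected, 0.18 corrected and 0.16 at matched GC. In hyl1-2 the differences were 0.13, 0.098 and -0.039. The last was small beside the spread among the 221 overlapping and 124 separate pairs matched in GC, so no order is read from it.

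The end quotient differed with the distance between the ends. In WT the median log2 quotient was -0.098 at overlaps above 300 bp, -0.29 at those above 100 and up to 300 bp and -0.42 at those up to 100 bp. It was -0.57 at gaps up to 50 bp, -0.60 at those above 50 and up to 100 bp and -0.68 at those above 100 and up to 200 bp. Convergent pairs outside the rule, above 200 and up to 500 bp apart, had -0.80, and those above 500 and up to 1000 bp apart -0.71. In hyl1-2 the same order of distances gave 0.086, 0.062, 0.029, -0.086, -0.059, -0.14, -0.17 and -0.16, and its largest step lay between overlaps up to 100 bp and gaps up to 50 bp. Just inside the limits, 91 pairs with overlaps above 400 bp had 0.0039 in WT and 0.17 in hyl1-2, and 209 with gaps above 150 bp had -0.62 and -0.036. Just outside, 63 pairs with overlaps above 500 and up to 600 bp had 0.061 and 0.09, and 158 with gaps above 200 and up to 250 bp had -0.84 and -0.21. In widely overlapping pairs the midpoint lies inside both genes: at overlaps above 300 bp GC at the ends was only 1.8 points below that of the flanks, against 8.2 points at overlaps up to 100 bp. After the GC correction the medians in WT were 0.019, 0.28 and 0.35 in the overlapping bins and 0.22, 0.10 and 0.036 in the separate bins, and the highest value stood at overlaps up to 100 bp.

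**Figure D5:**
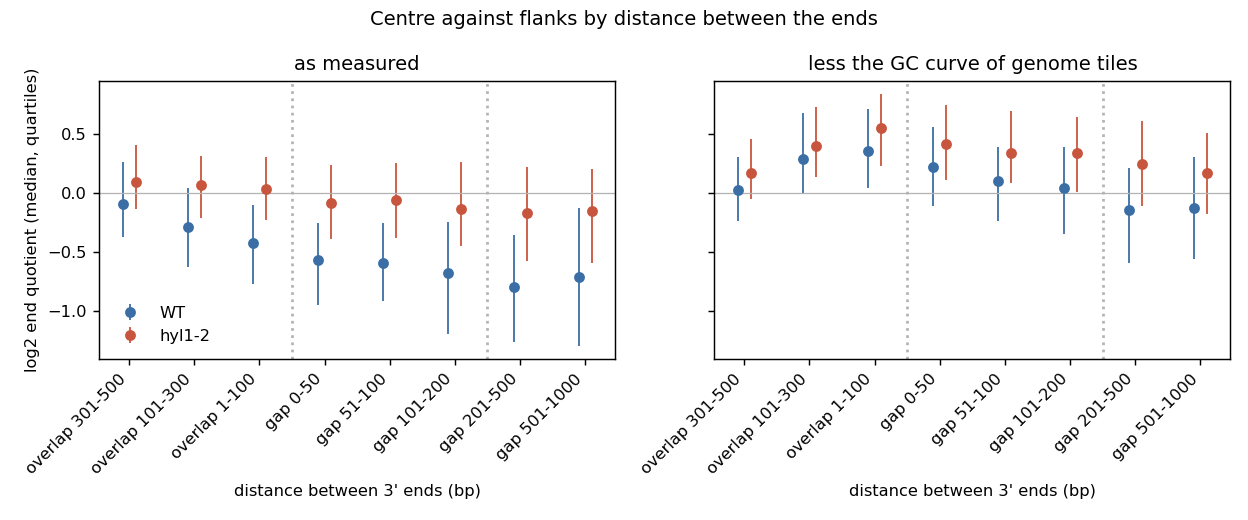
Median log2 end quotient (vertical, points) with quartiles (bars) by the distance between the 3′ ends of convergent pairs (horizontal, in bp), WT in blue and hyl1-2 in red, as measured (left) and less the GC curve of genome tiles (right). Dotted lines part overlapping, separate and more distant pairs; as measured, WT falls from -0.098 to -0.80 and stands at -0.71 in the most distant bin, and after the correction the bin of overlaps up to 100 bp is highest at 0.35 in WT.

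A second gene across the midpoint adds signal to one of the flanks, so each gene was also compared with its own side alone, the 200 bp around its 3′ end over its own 500 to 1000 bp. The median log2 value in WT was -0.39 in genes of overlapping pairs, -0.63 in separate pairs, -0.78 in convergent pairs above 200 and up to 1000 bp apart and -1.04 at isolated ends. In hyl1-2 it was 0.0049, -0.10, -0.21 and -0.50. The order was the same in both genotypes, and it was kept after the GC correction: 0.27, 0.11, -0.022 and -0.15 in WT, and 0.42, 0.39, 0.27 and 0.083 in hyl1-2. An isolated end has no other gene behind it, and signal from the partner gene reaches the end window of a close pair, so these values do not measure the polymerases of a single gene.

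The end quotient of hyl1-2 was higher in pairs with more Pol II in hyl1-2. Pairs were split into 3 groups of like size by their 2-kb level in hyl1-2. In the group with the highest level the median log2 quotient of hyl1-2 was 0.21 in both overlapping and separate pairs, and in the group with the lowest level -0.094 and -0.29. The level and the quotient come from the same library, so this is a description. Split by the level in WT instead, the order was the opposite: the hyl1-2 quotient of overlapping and separate pairs was -0.085 and -0.21 in the highest group and 0.21 and 0.028 in the lowest. In WT the values of the groups by hyl1-2 level were -0.35 and -0.57 in the highest group and -0.32 and -0.66 in the lowest. In the 5% of pairs with the highest level in hyl1-2, the summed hyl1-2 ratio reached 4.80 at 250 to 300 bp before the midpoint, and the WT ratio of the same pairs ran between 1.13 and 1.79. Picking pairs by their hyl1-2 level favours this contrast. In the 5% with the highest level in WT, the summed ratio ran between 1.40 and 2.22 in WT and between 1.91 and 2.48 in hyl1-2. Their median log2 fold change was -0.38 in overlapping and -0.44 in separate pairs. Picking pairs by their WT level favours a low fold change, because that level is its denominator. The summed ratios of the same pairs did not show this decrease. In such sums pairs with many reads weigh more than in a median over pairs.

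Single pairs stood far from the medians. In WT the highest end quotients, among pairs with at least 50 reads in every window, were 2.60 for bZIP48 with AT2G04137 and 2.29 for PTAC7, a component of the plastid transcription complex, with AT5G24316. In both the ends were richer in GC than the flanks, 40% against 29.4% and 41.5% against 30.7%. bZIP48 and AT2G04137 both stop short of 500 bp from the midpoint, so both flanks of that pair lie outside its genes. AT5G24316 stops short of 1000 bp, so part of the flank on its side lies outside it. The quotient of CP12-2 and BZIP53 was 1.92 in WT and 1.5 in hyl1-2, with 33.5% GC at the ends and 37.4% in the flanks. CP12-2 also stops short of 1000 bp from the midpoint. In hyl1-2 the highest were 2.82 for AT1G11380, a PLAC8 family gene, with the kinase gene AT1G11390, and 2.74 for AT3G29070 with AT3G29075. Their WT values were 0.86 and 1.25, and their GC contents at the ends and in the flanks differed by little, 36.0% against 37.3% and 37.0% against 36.4%. AT1G49220 with AT1G49225 followed with 2.66 in hyl1-2 and 2.00 in WT. Its ends were richer in GC than its flanks, 43.5% against 32.6%, and less the GC curve of tiles its hyl1-2 quotient was 1.80. AT1G49220 stops short of 1000 bp from the midpoint. MAP3KA, a kinase of the MAP kinase cascades, with GLY3, a glyoxalase, had 0.527 in WT and 2.64 in hyl1-2.

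The sides of a pair were compared at 500 to 1000 bp from the midpoint. Both genes reached 1000 bp in 2726 of the 3440 pairs with values on both sides, and in the others a side also holds intergenic DNA or another gene. Both sides had a fold change above 1.2 in 458 of 3440 pairs, 13.3%, against 13.8% of all 3′ ends, and below 0.8 in 442, 12.8%, against 9.80%. In 205 pairs, 5.96%, one side was above 1.2 and the other below 0.8, against 10.1% of all 3′ ends and 8.68% of 1313 convergent pairs above 200 and up to 1000 bp apart. The side downstream of a single 3′ end lies outside that gene, so the shares over all 3′ ends come from unlike windows. Where both genes reached 1000 bp, 142 pairs, 5.21%, had opposite sides. Across pairs the log2 fold changes of the sides had a Pearson r of 0.55 in overlapping, 0.46 in separate and 0.36 in these more distant convergent pairs (n = 2096, 1344 and 1313). The sides share libraries, scaling and regional base composition, and pairs are not replicates. MAP3KA with GLY3 had 0.844 on the MAP3KA side and 2.43 on the GLY3 side, and AT3G47150, an F-box gene, with AT3G47160, a RING/U-box gene, 0.673 and 2.53. Both sides were higher in AT3G15450 with AT3G15460 (3.82 and 3.37) and in MYB73 with HMA1 (2.77 and 2.85).

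Convergent pairs known for natural antisense siRNAs were looked up by name. The overlapping pair of AT4G35850, a pentatricopeptide repeat gene, and GB2, a small GTPase, which is known for siRNAs in the response to bacteria, had a level of 0.953 in WT and 1.41 in hyl1-2, a fold change of 1.48 (1.24 to 1.76). KPL and ARI14, which act in fertilization and are listed here as 82 bp apart, had 1.85 and 1.19, a fold change of 0.644 (0.543 to 0.763). SRO5 and ALDH12A1, the salt-stress pair, overlap by 905 bp in this annotation and are therefore not members.

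Some genes of the small RNA pathway and of 3′-end formation ended in such pairs themselves, 8 of 14 and 8 of 18 genes looked up, against 25.1% of all genes. Both lists were picked by hand and these shares were not tested. DCL1, which cuts miRNA precursors together with HYL1, overlaps PPa1 by 58 bp, and the pair had 0.984 in WT and 1.09 in hyl1-2, a fold change of 1.11 (0.934 to 1.32). SE with FRS3 had 0.945 (0.798 to 1.12). None of the 8 small RNA pairs was above 1.2, against 28.7% of all 3′ ends, and 4 were below 0.8, against 16.5% of all 3′ ends: DCL4 with AT5G20310 (0.751), DCL3 with AT3G43930 (0.754), DCL2 with AT3G03290 (0.788) and CPL1 with NRT1.8 (0.789). The window of a pair also holds part of the partner gene. Over the genes themselves, DCL4 (0.786) and DCL3 (0.737) were below 0.8, but DCL2 (0.903) and CPL1 (0.993) were not. The 18 genes of the other list act in cleavage and polyadenylation or encode the nuclear exonucleases that follow Pol II. Over their gene bodies, from 200 bp after the start, 2 of the 18 had a fold change above 1.2 and 3 below 0.8, against 24.5% and 23.2% of 27210 genes. The median fold change of the 18 was 0.846, against 0.944 for all genes. The higher ones were FPA, an RNA-binding protein that controls poly(A) site choice (1.41, interval 1.27 to 1.56), and the poly(A) polymerase gene AT4G32850 (1.31, interval 1.16 to 1.47). The lower ones were CPSF160 (0.733), CPSF100 (0.752) and AT5G60940 (0.785), subunits of the cleavage complexes. At the end of FPA, shared with ETFQO, the 2-kb fold change was 0.914 (0.764 to 1.09).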

How the data were processed

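Pol II ChIP-seq and input DNA were compared in leaves of WT Col-0 and hyl1-2, with 1 library per condition. The deposited files list aligned reads as extended intervals with a mapping score given by the authors in each line. According to the study's methods, reads were trimmed, aligned to TAIR10 with Bowtie, cleared of duplicates with SAMtools and extended. Versions were not given in the sources used here. Intervals were 200 bp in ChIP and 175 bp in input, so density (RPM per kb) was taken over the interval positions that can overlap a window. Last read positions equalled the chromosome lengths of TAIR10.1.

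Reads overlapping each window by at least 1 bp were counted with Python 3.11.15 and numpy 2.4.6, on both strands together, since ChIP reads carry no strand of transcription. Windows with under 10 reads in any library were left out. Counting intervals (95%, normal approximation on the log scale of counts) cover counting error only. Median reads in the 2 kb of a pair were 325, 425, 837.5 and 673 in WT input, hyl1-2 input, WT ChIP and hyl1-2 ChIP. GC curves used bins of 2 percentage points. The counting and the fold changes were tested on simulated data.

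Named pairs had at least 50 reads in every library. They were, in each class, the 4 with the highest level in hyl1-2, 3 from each end of the fold changes, the 3 with the highest end quotient in each genotype, and known antisense pairs. The members, lists and rules were chosen with earlier results of these data known. The product groups and the small RNA list were added after the files were read.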

Additional observations from a re-analysis of the deposited data

How the results depend on the processing

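No paired analysis was possible because each condition had 1 library. Of 118 alternatives, 73 kept a median within its interval over pairs or a share within 1.5 times, 36 moved the value and 9 reversed it. The alternatives chosen after seeing the data were both GC curves and the GC match of ends and flanks.

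For the log2 fold change over 2 kb, scaling by windows far from genes gave -0.16 in overlapping and -0.24 in separate pairs, which shifts every pair alike, and leaving out reads of mapping quality 0 gave -0.038 and -0.10. In overlapping pairs it was -0.016 where both genes reached 1000 bp, -0.025 with no other gene and 0.028 with a GC correction of the 2 kb. With thresholds of 1.5 and its inverse, 15.0% of pairs were higher and 1.31% lower, and with scaling far from genes 36.4% were lower.

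For the log2 end quotient in WT, overlapping and then separate pairs, counting by interval midpoints gave -0.51 and -0.75, extension along the read strand -0.41 and -0.68, no division by input -0.30 and -0.52, genes reaching 1000 bp -0.41 and -0.64, an end window of 100 bp -0.43 and -0.69, and one of 400 bp -0.22 and -0.45. In overlapping pairs it was -0.40 with at least 50 reads, -0.39 with no other gene, -0.28 with overlaps of at least 50 bp and -0.44 with flanks at 300 to 700 bp. The GC curve of tiles turned both to 0.30 and 0.13, the curve of intergenic windows to 0.33 and 0.18, and matched GC gave -0.037 and -0.19.

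In hyl1-2, overlapping pairs had -0.013 by midpoints, 0.071 with no division by input, 0.0031 with an end window of 100 bp, 0.11 with 400 bp, and -0.097 with flanks at 300 to 700 bp. Separate pairs had -0.036 with 400 bp and -0.17 with flanks at 300 to 700 bp. The tile curve gave 0.46 and 0.36, the intergenic curve 0.54 and 0.45, and matched GC 0.14 and 0.18. Apart from scaling and GC correction, whose construction shifts the values, the cause was not tested.

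With 1 library per condition, a library's own departure from its genotype cannot be told apart from a difference between genotypes. Seed genes stood above leaf genes in the WT ChIP library. Reads of quality 0 were 11.9 to 14.5% of a library and fit several places.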
